A study of Mus musculus with 4 samples.

Results

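The genes described here are the neural adhesion and guidance families of the table: protocadherins, cadherins, Ncam, neurexins, neuroligins, contactins, semaphorins, plexins, Eph receptors, ephrins, Robo receptors and Slit. They were chosen by the start of their symbols, a rule that uses no measured value although it was set with earlier results of these data known, and comprised 61 of the 15305 gene rows. The cells came from mice of the Penk-Cre Ai9 line, labelled WT, in which Cre driven by Penk, a gene of striatal projection neurons, switches on the red protein tdTomato. Single tdTomato+ cells were sorted from dissociated tissue of striatum and subventricular zone into the wells of plates. In dataset A (41 cells, 1 plate) cells bearing CD11b, a microglia surface protein, were left out of the sort, and in dataset B (41 cells, 4 plates) all tdTomato+ cells were taken. The number, age and sex of the mice are not given in the sources used here.

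For each dataset the labels name neuroblasts and quiescent neural stem cells of the subventricular zone as samples, but the columns give only dataset, plate and well, so no cell could be assigned to a labelled sample. Cells were grouped by 2 genes that are not members. The 41 Sox11 cells (16 in dataset A, 25 in B) had 10 or more counts of Sox11, a transcription factor of immature neurons. The 30 Enpp2-rich cells (14 in A, 16 in B) had at least 1% of their counts on Enpp2, which encodes the secreted enzyme autotaxin. Of the others, 9 remaining cells met neither rule, all in dataset A, and 2 cells of dataset A met both and were kept apart. Total counts per cell ran from 530630 to 7765650, and no 2 cells held identical counts. Some cells of dataset A nevertheless held Pcdh9, Robo2, Plxna4, Efnb2 and Pcdhb19 in similar proportions, as given with the clustered protocadherins below. Whether these cells are independent was not tested.

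Cell type markers differed between these groups. Of 19 neuroblast markers, Sox11 cells had a median of 12.5 at 10 or more counts in dataset A and 14 in dataset B, Enpp2-rich cells had a median of 1 in each, and the remaining cells had 0. Of 13 choroid plexus epithelium markers, Enpp2-rich cells had a median of 10.5 in A and 9 in B, against 1 and 0 in Sox11 cells. The Enpp2-rich cells had a median of 1 of 14 markers of astroglia and quiescent stem cells in each dataset, and the remaining cells had 10. Within the Sox11 cells, 5 (4 in A, 1 in B) also had at least 5 markers of choroid plexus, astroglia or microglia, and counts of calls are given with and without them. The median number of all genes at 10 or more counts was 1218.5 and 1249 in Sox11 cells of datasets A and B, 814.5 and 1087.5 in Enpp2-rich cells, and 1005 in the remaining cells, where 2 cells had only 58 and 207.

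These families let migrating neurons and their growing processes hold on to, and read, their surroundings. Cadherins, protocadherins and Ncam bind like molecules on neighbouring cells, neurexins bind neuroligins across the synapse, and contactins are anchored adhesion molecules of axons and glia. Semaphorins signal through plexins, ephrins through Eph receptors and Slit through Robo receptors, and these cues turn or repel moving cells, neuroblasts of the subventricular zone among them.

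Reference sequence is shown for the regions before the start sites of 3 members chosen as examples. Of these, 2 were detected in Sox11 cells (Pcdh9, Robo2) and 1 mostly in Enpp2-rich cells (Cntn1). Each run is the 250 bases upstream of the first start listed by RefSeq on GRCm38.p6, 5′ to 3′ on the strand of the gene, and RefSeq lists 2 starts for Pcdh9 and 3 each for Robo2 and Cntn1. Capitals mark matches to the letters CCAAT on either strand. The other motifs searched, given after the sequences, had no match in these 3 regions.
Pcdh9, chr14:93890680-93890929, minus strand: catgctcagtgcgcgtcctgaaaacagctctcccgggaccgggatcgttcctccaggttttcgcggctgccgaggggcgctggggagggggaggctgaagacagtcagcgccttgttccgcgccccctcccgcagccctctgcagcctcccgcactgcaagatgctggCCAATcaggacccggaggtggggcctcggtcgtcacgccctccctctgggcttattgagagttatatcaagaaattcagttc
Robo2, chr16:75447294-75447543, minus strand: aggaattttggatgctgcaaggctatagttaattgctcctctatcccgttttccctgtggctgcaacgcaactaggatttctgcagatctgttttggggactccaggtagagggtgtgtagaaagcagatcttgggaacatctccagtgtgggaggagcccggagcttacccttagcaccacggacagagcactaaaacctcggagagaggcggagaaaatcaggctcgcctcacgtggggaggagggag
Cntn1, chr15:92050915-92051164, plus strand: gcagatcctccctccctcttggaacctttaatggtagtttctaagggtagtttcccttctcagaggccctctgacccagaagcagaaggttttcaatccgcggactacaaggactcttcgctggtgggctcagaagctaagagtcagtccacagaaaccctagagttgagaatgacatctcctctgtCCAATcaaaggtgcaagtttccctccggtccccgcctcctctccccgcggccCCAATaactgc
The region of Pcdh9 held 1 CCAAT and that of Cntn1 held 2. G and C made up 63.6% of the Pcdh9 region, 53.2% of that of Robo2 and 53.6% of that of Cntn1. Of the 61 members, 41 matched a RefSeq entry, and 34.1% of these 41 regions held CCAAT, against 34.5% of 27025 regions of the same length. The letters ACAAT, a core bound by Sox factors, lay in 14.6% of the member regions and 28.3% of all. An E-box spelled CAGCTG lay in 9.76% against 12.8%. A homeodomain core spelled TAATTA lay in 2.44% against 4.9%. The median share of G and C was 63.6% in member regions and 52% in all. These matches describe letters, and no binding was measured.

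Adhesion and guidance genes were detected more widely in Sox11 cells than in Enpp2-rich cells. A gene is called detected in a cell at 10 or more counts. Sox11 cells had a median of 8 members detected in dataset A (3 to 18 per cell) and 7 in B (3 to 14), and Enpp2-rich cells had 2 in A (1 to 5) and 1 in B (0 to 3). As a share of all genes detected in the same cell, the medians were 0.640% and 0.553% in Sox11 cells and 0.196% and 0.0461% in Enpp2-rich cells. The per-cell ranges of the classes overlapped in both datasets, and the medians differed in the same direction in both datasets. With every cell thinned to 500000 counts the medians were 7 and 6 in Sox11 cells against 2 and 1.

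**Figure D1:**
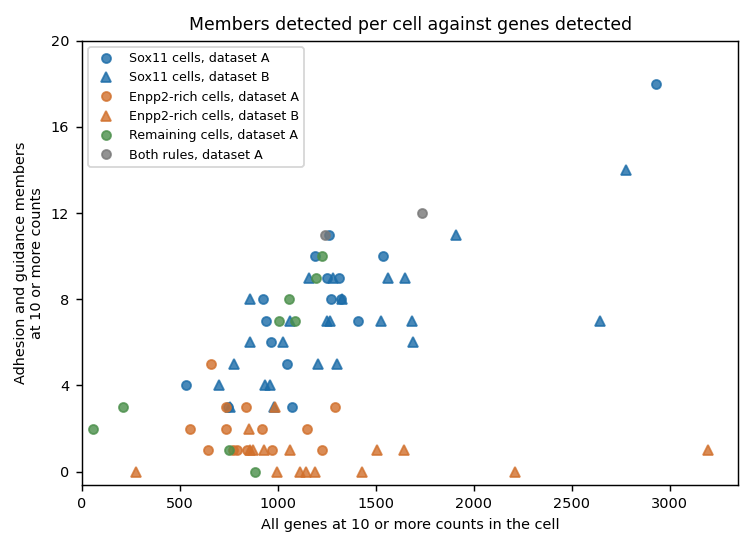
Members detected per cell (vertical axis, of 61) against all genes detected in that cell (horizontal axis), 1 point per cell, coloured by class, with circles for dataset A and triangles for dataset B. Enpp2-rich cells stay at 5 members or fewer even where over 2000 genes were detected, while Sox11 cells reach 14 in dataset B and 18 in dataset A, the latter in 1 cell with 10 choroid plexus markers.

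Of the 61 members, 7 had no count in any cell (Cdh13, Cdh23, Cntn2, Epha7, Plxnb3, Sema4c and Sema6d), 5 had counts but never 10 in a cell, and 49 were detected in at least 1 cell, 19 of them in only 1 or 2. Sox11 cells held 39 of them, Enpp2-rich cells 11 and the remaining cells 25. Among the 42 members detected in either main class, 73.8% were detected in Sox11 cells alone and 7.14% in Enpp2-rich cells alone (Cdh3, Sema3b and Sema4d). Over all 10302 genes detected in either class these shares were 33.3% and 10.8%. A stricter rule, at least 5 Sox11 cells and no Enpp2-rich cell, was met by 13.4% of the 5791 genes detected in 5 or more cells and by 11 of the 20 members among them, Ncam1, Ncam2, Nrxn3, Pcdh9, Cdh2, Plxna3, Plxna4, Robo2 and Efnb2 included. The opposite rule was met by 2.23% of genes and by 0 of the 20 members. The share of cells was higher in Sox11 than in Enpp2-rich cells for 61.3% of these genes and 18 of the 20 members, and lower for 38.4% and 2 (Cntn1 and Pcdh7). Detection in 0 of the 30 Enpp2-rich cells allows a detected share of up to 10%. This limit takes the cells as independent, although they share plates and may share mice, and it concerns detection at 10 counts, not expression. Counting intervals and floors given below cover counting error only, since the reads carry no molecular identifiers.

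For a test across all genes, the cells of each class were pooled by dataset into 5 pools of summed counts, and 10672 genes were compared with edgeR's quasi-likelihood test and Benjamini-Hochberg adjustment. Between Sox11 and Enpp2-rich pools 0.534% of genes passed an adjusted p of 0.05, 51 higher and 6 lower in Sox11 cells, and 3 of the 49 members tested did, all higher in Sox11 cells: Pcdh9, Ncam1 and Robo2. By direction, 0.478% of genes and 3 members passed as higher in Sox11 cells, and 0.0562% of genes and 0 members as lower. At an unadjusted p under 0.05 stood 10.1% of genes and 14 of the 49 members. The fitted difference was above 0 for 60.7% of genes and 37 of the 49 members. The median log2 difference was 10.63 over the 49 members and 1.10 over all genes tested. With pool sums under 3 counts set to 3, the medians were 8.48 over 43 members, 37 of them above 0, and 1.59 over 10468 genes. These signs and medians describe the members kept by the filter and support nothing, since a member kept through the Sox11 pools alone, often through 1 cell, had to differ. The 3 calls rest on few pools: with the dataset as a block no gene passed (0 of 10672, and 886 at an unadjusted p under 0.05), and the adjusted p of Pcdh9, Ncam1 and Robo2 was 0.583 each. The calls also rest on keeping apart the 2 cells that met both rules, which held 302 counts of Ncam1, 218 of Pcdh9 and 74 of Robo2. With these cells in the Enpp2-rich class 0 genes passed, and with them in the Sox11 class the 3 members still did. Without the pool of remaining cells the count of members called was likewise 0. Leaving out a Sox11 or an Enpp2-rich pool left 1 pool in that class, and in no such fit did all 3 members pass. Without the dataset A Sox11 pool Robo2 was not among the members called (log2 difference 16.27), while Cntn1 was (-17.47). Without the 5 Sox11 cells that carried markers of another type, 5 members passed, Nrxn3 and Cntn1 being added to the 3, while the calls over all genes rose from 57 to 153.

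**Figure D2:**
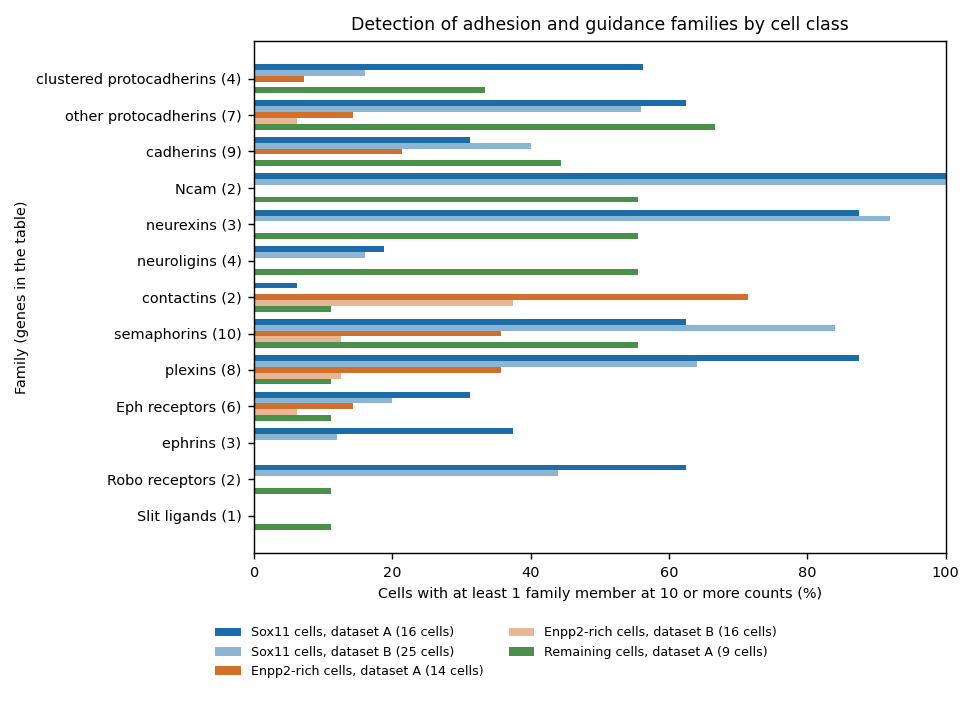
Percentage of cells with at least 1 member of a family at 10 or more counts (horizontal axis) for the 13 groups of families (vertical axis, with the number of genes in the table), 1 bar per class and dataset. The Sox11 bars reach 100% for Ncam in both datasets, and contactins are the 1 group whose Enpp2-rich bars exceed the Sox11 bars in both datasets.

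Among the adhesion molecules that bind their own kind, Ncam1 separated the classes in every cell. It encodes the neural cell adhesion molecule, whose polysialic acid form coats migrating neuroblasts. Its counts scaled to 1000000 per cell (CPM) in Sox11 cells ran from 3.925 through a median of 1987.4 to 6242.4 in dataset A and from 191.9 through 2710.9 to 9603.4 in dataset B. It was detected in 16 of 16 and 25 of 25 Sox11 cells, on all 5 plates, and in 0 of 30 Enpp2-rich cells, which held 5 counts of Ncam1 in all, so the ranges did not overlap. Mean Ncam1 was 2710.2 ± 1032.5 CPM in Sox11 cells and 0.08116 ± 0.1148 CPM in Enpp2-rich cells (SD, n = 2 datasets). The fitted log2 difference was 14.21 (SE 2.36, adjusted p = 0.027, edgeR), and the ratio of pooled counts was 40403.2 (95% counting interval 17312.9 to 124434.7). The 5 Enpp2-rich counts behind this ratio all lay in dataset A. Without the Enpp2-rich pool of dataset A the log2 difference was 19.34, and without that of dataset B it was 13.14. With the 2 cells of both rules counted as Enpp2-rich, the log2 difference of Ncam1 fell to 8.29 (adjusted p = 0.162, edgeR), and the ratio above holds only without them. Ncam2, its paralogue, was detected in 5 of 25 Sox11 cells of dataset B, at 49.38 to 440.5 CPM, and in 0 of 16 of dataset A.

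Pcdh9, a protocadherin outside the gene clusters, was present in a part of the Sox11 cells and then abundant. It was detected in 10 of 16 Sox11 cells of dataset A and 13 of 25 of dataset B, at 10.15 to 6835.6 CPM (median 2421.0) and 27.26 to 5408.5 CPM (median 1615.7). The other Sox11 cells were at or near 0, as were all Enpp2-rich cells, which held 1 count of Pcdh9 in each dataset. The fitted log2 difference was 14.64 (SE 2.21, adjusted p = 0.0245, edgeR), and the ratio of pooled counts was 38657.4 (95% counting interval 10701.2 to 319211.9). With the 2 cells of both rules counted as Enpp2-rich, the log2 difference of Pcdh9 was 7.66 (adjusted p = 0.19, edgeR), so this ratio too holds only without them. Detection varied between plates of dataset B, with 10 of 12 Sox11 cells on the first plate, 2 of 6 on the second, 1 of 3 on the third and 0 of 4 on the fourth. Pcdh7 went the other way in count, with 1 of 41 Sox11 cells, 3 of 30 Enpp2-rich cells and 2 of 9 remaining cells, and its log2 difference was -3.48 (SE 3.52, adjusted p = 0.685, edgeR).

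**Figure D3:**
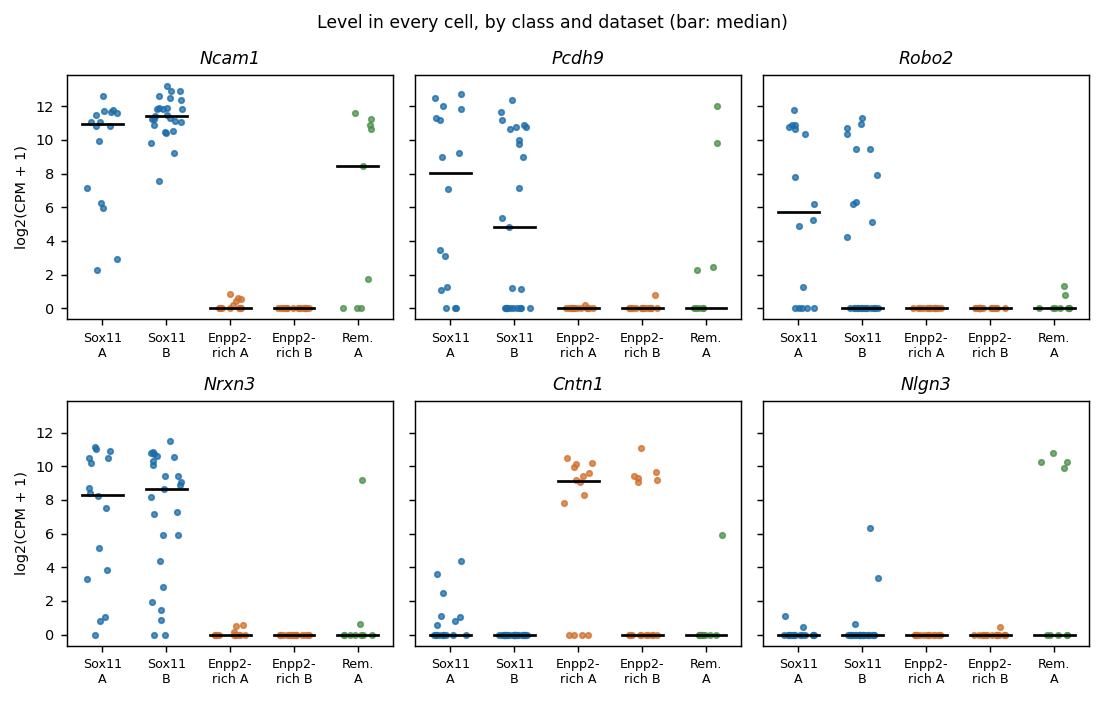
log2(CPM + 1) of 6 members in every cell (vertical axis) by class and dataset (horizontal axis), 1 point per cell, with a bar at the median. Ncam1 is above 0 in all 41 Sox11 cells, Pcdh9, Robo2 and Nrxn3 split the Sox11 cells into cells with and without the gene, Cntn1 is high in 16 of 30 Enpp2-rich cells, and Nlgn3 in 4 of 9 remaining cells.

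The clustered protocadherins, which give single neurons their surface identity, were sparse. Pcdhb19 was detected in 4 of 16 and 2 of 25 Sox11 cells and in no Enpp2-rich cell, at 38.66 to 1792.8 CPM and 240.8 to 385.7 CPM. Its adjusted p was 0.351 (edgeR). Pcdhb19 stood at 1793, 1317 and 38.66 CPM in the dataset A Sox11 cells of wells G8, G9 and H6. The cell of both rules in well E10 had 18.52 CPM. In the same order Pcdh9 stood at 5784, 4160, 132.5 and 55.23 CPM, and Plxna4 at 2678, 2148, 56.21 and 23.24 CPM. Robo2 stood at 1890, 1623, 28.23 and 24.92 CPM, and Efnb2 at 810.7, 507.5, 16.79 and 7.072 CPM. These cells shared members in similar proportions, and whether they are independent was not tested. Pcdhgb6 was detected in 3 Sox11 cells of dataset A, 1 of which held 77.19% of the counts of that pool. Pcdhga12 had a count in 81 of 82 cells but only 856 counts in all, and reached 10 counts in 7 and 2 Sox11 cells, 1 Enpp2-rich cell and 3 remaining cells. Genes of the gamma cluster share their last exons, so these rows are uncertain.

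Among the classical cadherins, Cdh2 (N-cadherin) was detected in 5 of 16 and 9 of 25 Sox11 cells and in 0 of 30 Enpp2-rich cells. Where detected it stood at 48.66 to 2740.1 CPM in dataset A and 5.295 to 1778.1 CPM in dataset B, and the adjusted p of its log2 difference of 12.69 (SE 3.58) was 0.145 (edgeR). Cdh3 (P-cadherin) was detected in 3 Enpp2-rich cells of dataset A, at 4.378, 100.5 and 1134.6 CPM, and in no Sox11 cell. The highest of these held 92.53% of the Cdh3 counts of its pool. Cdh11 was above 10 counts in 2 Sox11 cells, at 6.999 and 8.684 CPM, and in 1 remaining cell at 2826.5 CPM.

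Contactins were the family with the opposite pattern. Cntn1, an anchored adhesion molecule that forms complexes with other surface proteins, was detected in 10 of 14 Enpp2-rich cells of dataset A and 6 of 16 of dataset B, at 223.3 to 1437.9 CPM (median 724.7) and 533.4 to 2174.5 CPM (median 655.8). Among Sox11 cells it was detected in 1 of 16, at 19.58 CPM, and in 0 of 25, where it had no count at all. Mean Cntn1 was 448.1 ± 155.1 CPM in Enpp2-rich cells and 1.219 ± 1.724 CPM in Sox11 cells (SD, n = 2 datasets), a pooled ratio of 372.5. The 1 Sox11 cell with Cntn1 detected held 78.57% of the Cntn1 counts of the Sox11 cells. It had 12 choroid plexus markers and lay just under the Enpp2 limit of 1%, so the ratio depends on where this cell is placed. The same cell, of well H6, gave the lowest detected dataset A values of 4 members in Sox11 cells. These were Robo2 (28.23 CPM), Plxna4 (56.21), Efnb2 (16.79) and Pcdhb19 (38.66). The log2 difference of -8.74 (SE 2.76) did not pass in the fit of all pools (adjusted p = 0.204, edgeR), and it passed under 5 of 16 alternatives, with adjusted p from 0.00181 with cells thinned to 0.734 without the dataset A Enpp2-rich pool. It passed without the 5 Sox11 cells with other markers (-13.19, adjusted p = 0.0412, edgeR) and without the dataset A Sox11 pool (-17.47, adjusted p = 0.0442), and did not with the dataset as a block (-11.51, adjusted p = 0.583) or without the dataset B Sox11 pool (-7.74, adjusted p = 0.373). By plate of dataset B, 0 of 2, 2 of 4 and 4 of 10 Enpp2-rich cells had Cntn1. The other contactin of the table, Cntn2, had no count in any cell.

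Neurexins, adhesion receptors of the presynaptic side, were detected in 14 of 16 and 23 of 25 Sox11 cells, in 0 of 30 Enpp2-rich cells and in 5 of 9 remaining cells. Their summed mean level was 970.3 and 1037.8 CPM in Sox11 cells of datasets A and B and 665.0 CPM in the remaining cells, so the family was not limited to Sox11 cells. Nrxn3 was detected in 12 of 16 and 20 of 25 Sox11 cells, at 8.965 to 2231.9 CPM (median 802.4) and 6.122 to 2896.4 CPM (median 604.1), and in no Enpp2-rich cell. Its mean was 704.0 ± 30.91 CPM in Sox11 cells against 0.03718 ± 0.05258 CPM (SD, n = 2 datasets), and the log2 difference of 12.97 (SE 2.75) had an adjusted p of 0.0615 (edgeR), or 8.58 and 0.207 with the cells of both rules counted as Enpp2-rich. The partners of neurexins, the neuroligins, were detected in 7 of 41 Sox11 cells, 0 of 30 Enpp2-rich cells and 5 of 9 remaining cells. Nlgn1 was seen in 2 Sox11 cells of dataset A, Nlgn2 in 3 and Nlgn3 in 2 of dataset B.

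Of the ligands of the guidance systems, the semaphorin Sema4b was the most widely detected, in 9 of 16 and 21 of 25 Sox11 cells, 3 of 14 and 1 of 16 Enpp2-rich cells and 4 of 9 remaining cells. It stood at 6.613 to 1721.9 CPM (median 284.4) and 7.404 to 946.3 CPM (median 82.62) where detected in Sox11 cells, and at 11.28 to 40.19 CPM in the Enpp2-rich cells. The ranges overlapped, and the adjusted p of its log2 difference of 5.15 (SE 2.68) was 0.593 (edgeR). Sema5a and Sema6c were each detected in 3 Sox11 cells of dataset B, and Sema4a in 1 Sox11 cell of dataset A at 2552.5 CPM. Sema3b was detected in 2 Enpp2-rich cells of dataset A. Ephrins, the membrane ligands of Eph receptors, were detected in 9 of 41 Sox11 cells and had no count in Enpp2-rich cells. Efnb2 was detected in 6 of 16 and 2 of 25 Sox11 cells, at 16.79 to 810.7 and 250.7 to 774.9 CPM (adjusted p = 0.405, edgeR), and Efnb1 in 3 and 1, with 95.56% of the dataset A counts in 1 cell. Slit2, the only Slit row, had no count in Sox11 or Enpp2-rich cells and was detected in 1 remaining cell with 2056 counts and in 1 cell that met both rules.

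Of the receptors, Robo2, which binds Slit, was detected in 10 of 16 and 11 of 25 Sox11 cells, at 28.23 to 3562.7 CPM (median 1475.1) and 17.99 to 2574.4 CPM (median 711.3). No Enpp2-rich cell held a count of it, against 20385 and 17968 counts in the Sox11 pools. The level was at least 11311.0-fold higher in Sox11 cells, taking 3 counts over the Enpp2-rich group as the floor, and the fitted log2 difference of 16.94 (SE 3.15, adjusted p = 0.0368, edgeR) is no bound, because it depends on how a count of 0 is treated. Both values leave out the cells of both rules, and with these counted as Enpp2-rich the log2 difference of Robo2 was 8.08 (adjusted p = 0.261, edgeR). Without the dataset A Sox11 pool the log2 difference was 16.27, and the call was not kept. Robo2 was detected in 8 of 12 Sox11 cells on the first plate of dataset B and in 1 each on the other 3. Robo1 was detected in 1 remaining cell only.

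Plexins, the receptors of semaphorins, were detected in 14 of 16 and 16 of 25 Sox11 cells and in 5 of 14 and 2 of 16 Enpp2-rich cells. Plxna4 was detected in 8 and 7 Sox11 cells, at 56.21 to 2677.9 and 23.99 to 1165.6 CPM, and was at 0 in all Enpp2-rich cells (at least 5749.1-fold higher by the same floor; adjusted p = 0.0918, edgeR). This bound too leaves out the cells of both rules, 1 of which held 69 counts of Plxna4, and with them counted as Enpp2-rich the log2 difference went from 16.14 to 7.38 (adjusted p = 0.451, edgeR). The bound rests mostly on dataset A, where the Sox11 mean of Plxna4 was 524.2 CPM against 95.81 in B, and without the dataset A Sox11 pool the difference was 14.50 (adjusted p = 0.744, edgeR). Plxna3 was detected in 5 and 5 Sox11 cells and was likewise at 0 in Enpp2-rich cells (at least 4914.8-fold higher; adjusted p = 0.113, edgeR), a difference of 15.92 on the log2 scale that was 11.67 with the cells of both rules counted as Enpp2-rich. Its mean was likewise higher in dataset A (470.3 against 85.64 CPM), and without the dataset A Sox11 pool the difference was 14.23 (adjusted p = 0.744, edgeR). Plxna2 was detected in 3 and 8 Sox11 cells and 1 Enpp2-rich cell. Of these 3 class A plexins, 16 Sox11 cells had 1, 10 had 2, none had all 3 and 15 had none. Plxnb2, a class B plexin, was detected in both classes, in 2 of 16 and 6 of 25 Sox11 cells and 3 of 14 and 2 of 16 Enpp2-rich cells, with a log2 difference of 0.27 (SE 1.96, adjusted p = 0.995, edgeR). Among Eph receptors, Epha4 was also detected in both, in 4 and 4 Sox11 cells and 2 and 1 Enpp2-rich cells, and its difference was 1.07 (SE 2.29, adjusted p = 0.927, edgeR). Ephb2 was detected in 2 Sox11 cells of dataset B.

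**Figure D4:**
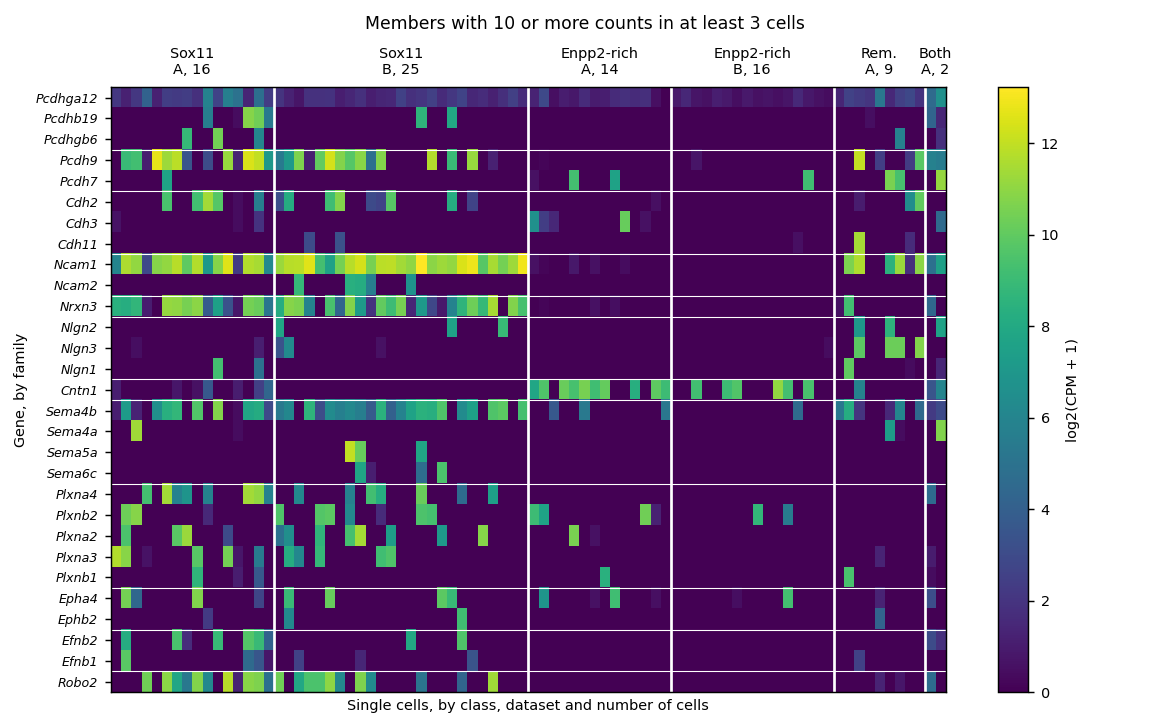
Level of members detected in at least 3 cells, as log2(CPM + 1) (colour), with 1 row per gene in family order and 1 column per cell by class and dataset. Ncam1 forms a continuous band over the Sox11 cells, most other members are present in scattered cells, and Cntn1 is present in 16 of the 30 Enpp2-rich cells.

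Summed over all members, mean CPM was 8613.1 and 7272.7 in Sox11 cells of datasets A and B, 1138.0 and 454.5 in Enpp2-rich cells and 4817.0 in the remaining cells. With the counts of Ttr and Enpp2 left out of each cell's total, the values became 8724.9 and 7274.1 in Sox11 cells and 2043.1 and 648 in Enpp2-rich cells. The difference between Sox11 and Enpp2-rich cells could not reach p under 0.05, since 4 pools allow no exact two-sided permutation p below 0.33, the value obtained. By family the mean of the 2 datasets was higher in Sox11 cells for 11 of the 13 groups. Neurexins stood at 1004.0 ± 47.73 against 0.0545 ± 0.07707 CPM, and semaphorins at 444.3 ± 44.83 against 56.5 ± 64.76 CPM (SD, n = 2 datasets). In 4 groups the gap between datasets within the Sox11 cells was larger than the difference between the class means. These were plexins, at 1035.2 ± 635.7 against 154.4 ± 176.7 CPM, cadherins, at 276.9 ± 173.1 against 44.51 ± 62.9 CPM, clustered protocadherins, at 194.8 ± 236.4 against 1.272 ± 0.6458 CPM, and ephrins, at 151.4 ± 117.9 CPM against 0. Compared per kilobase of merged exon, mean levels in Sox11 cells of datasets A and B were 225.1 and 391.1 CPM per kb for Ncam1, 179.9 and 89.26 for Pcdh9, 57.25 and 53.8 for Nrxn3, and 32.76 and 15.86 for Robo2. The order of Ncam1 and Pcdh9 over Nrxn3, and of Nrxn3 over Robo2, held in both datasets.

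The 9 remaining cells differed in how many members they held. Split by astroglia markers, a split made after the values were seen, 5 cells had 10 to 13 of the 14 markers and 7 to 10 members detected each (median 8), and the other 4 had 0 to 4 markers and 0 to 3 members. The 2 cells with only 58 and 207 genes detected are among these 4, and the part of low detection in the split was not tested. Summed over 8 oligodendrocyte lineage markers, the 9 remaining cells had a median of 0.9821 CPM and a maximum of 428940.9 CPM. They were not separated further by cell type. In the 5 cells Ncam1 was detected in all 5, at 351.6 to 3164.3 CPM (median 1927.3). Nlgn3, a postsynaptic partner of neurexins, was detected in 4 of the 5, with a median of 1239.9 CPM and a maximum of 1760.5, against 2 of 41 Sox11 cells, at 9.477 and 78.1 CPM. Neither Robo2 nor class A plexins were detected in any remaining cell. Ncam1 was thus present in both the Sox11 cells and these 5 cells, and its log2 difference between Sox11 and remaining pools was 1.31 (adjusted p = 0.74, edgeR). No gene passed in the comparisons with the remaining cells (0% of 10672 genes and 0 members; DESeq2 called 4021 genes for Sox11 and 3628 for Enpp2-rich cells). At an unadjusted p under 0.05 stood 8.78% of genes (937) and 9 members for Sox11 cells, and 10.6% (1127) and 9 members for Enpp2-rich cells. The single pool of remaining cells was assumed to vary like the others.

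Members varied together only loosely within the Sox11 cells. Over the 14 members detected in 10 or more of the 82 cells, the 91 rank correlations of log2(CPM + 1) across the 41 Sox11 cells ran from -0.31 to 0.45 with a median of 0.03, as a description of cells that share plates and differ in depth. The closest pair was Robo2 and Plxna4 (rho = 0.45), both detected in 13 of the 23 cells with either. Ncam1 was closest to Nrxn3 (rho = 0.42), and Pcdh9 to Robo2 (rho = 0.36), both detected in 14 of 30 cells with either. The dataset A cells of wells G8, G9 and H6, which shared members in similar proportions, count in each of these pairs.

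Other genes of these systems, taken from lists chosen by function, were counted in the same fit. In the lists of guidance co-receptors, other neural adhesion molecules, cadherin partners, guidance effectors and polysialic acid enzymes, with 10, 14, 9, 17 and 3 genes tested, 0 passed in either direction. Of 11 synaptic partners tested, 1 passed, Ptprs, a receptor phosphatase that binds proteoglycans and synaptic proteins. With 0.534% of all genes called, these counts say little about the lists. Ptprs was detected in 12 of 16 and 18 of 25 Sox11 cells and 0 of 30 Enpp2-rich cells (log2 difference 14.60, SE 2.75, adjusted p = 0.0363, edgeR). Rnd3, a small GTPase of the cytoskeleton, was detected in 13 of 16 and 23 of 25 Sox11 cells and 1 Enpp2-rich cell of each dataset (log2 difference 7.28, SE 1.68, adjusted p = 0.0758, edgeR). St8sia2, which adds polysialic acid to Ncam1, was detected in 3 and 7 Sox11 cells and no Enpp2-rich cell (adjusted p = 0.102, edgeR). Ctnna1, the alpha-catenin of epithelial cells, was detected in 5 of 14 and 11 of 16 Enpp2-rich cells against 3 and 4 Sox11 cells (log2 difference -2.01, SE 1.40, adjusted p = 0.597, edgeR), and Ctnna2, its neural counterpart, in 10 of 41 Sox11 cells and no Enpp2-rich cell. The reelin receptor Lrp8 was detected in 6 and 5 Sox11 cells and 1 Enpp2-rich cell of each dataset, and Cadm1, a synaptic adhesion molecule, in 7 of 41 Sox11 cells, 0 of 30 Enpp2-rich cells and 4 of 9 remaining cells.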

How the data were processed

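The deposited values are unnormalized read counts, whole numbers with unequal totals per cell, for 82 single cells. Per the submitters' processing notes the tools were FastQC 0.12.1, STAR 2.7.10b and featureCounts of Subread 2.1.1, with GRCm39 and mm10 both named without a role, so no coordinates were taken from the counts. Strand and annotation are not given in the sources used here, and 0 columns were left unused. Because no cell could be assigned to a labelled sample, the comparison of labelled cell types was replaced by the Sox11 and Enpp2 classes. The members, classes and gene lists were chosen with earlier results of these data known.

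Counts were scaled to 1000000 per cell (CPM) to describe levels, and unscaled counts were summed per class and dataset into 5 pools. These were fitted with edgeR 4.0.16 in R 4.3.3 (TMM, filterByExpr, quasi-likelihood test, Benjamini-Hochberg over all genes, Sox11 and Enpp2 left out, 2 residual degrees of freedom), and the method was tested on simulated data, where most log2 changes of 2 to 8 were recovered at a low spread and none of them at the spread of these pools (larger changes were not simulated). Pools of cells are not animals, so p-values measure the spread between pools, and fewer transcripts per cell cannot be told apart from lower capture. The 2 datasets pair the pools, since each had its own sort gate per the labels (whether a dataset was 1 sort is not given in the sources used here, and dataset B lies on 4 plates), and deviations of paired pools correlated at 0.117 over 10672 genes. DESeq2 1.42.0 was an alternative. Named members were, in each family, the up to 4 detected in the most cells (at least 3), any that passed, and the 10 with the lowest p, and up to 3 genes of each list were named by the same count. 1 member is not reported here by name. Exon lengths came from GENCODE vM39. Sequences came from RefSeq.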

Additional observations from a re-analysis of the deposited data

Results flagged for a closer look

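Plxnb2 differed in direction between the datasets. The mean log2(CPM + 1) of Sox11 minus Enpp2-rich cells came to -0.60 in dataset A, against 1.35 in dataset B, and the difference between datasets was not tested. On the linear scale mean Plxnb2 was higher in Sox11 cells in both, at 194.8 against 145.7 CPM in dataset A and 160.8 against 29.42 CPM in dataset B.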

How the results depend on the processing

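For the 10 members with the lowest p, 160 refitted log2 differences under 16 alternatives kept their direction in all cases: 116 stayed on the same side of the threshold, 22 lost the call and 22 gained it. The number of calls moved far more, and the cause of these shifts was not tested. Between Sox11 and Enpp2-rich pools it was 57 in all and 3 among members, and became 138 with library size alone (4 members), 333 and 8 with no filter on low counts, 2984 and 26 with DESeq2, 488 and 9 with cells thinned, and 0 and 0 with the replicate block, with the cells that met both rules added to the Enpp2-rich class, or with only the compared pools fitted. Without the Sox11 cells that carried markers of another type, an alternative chosen after seeing the data, it was 153 (79 higher, 74 lower) and 5. Leaving out 1 pool at a time gave 0 to 78 calls and 0 to 3 among members. Against the remaining cells, Sox11 pools gave 14 calls with library size alone, 159 with no filter, 4021 with DESeq2 (24 members), 237 thinned and 2 without the mixed Sox11 cells. Enpp2-rich pools gave 49 (2 members), 258 (5), 3628 (23) and 438 (6) under the first 4 of these, 4 without the mixed cells, 3 and 2 with the cells of both rules added to Sox11 or Enpp2-rich cells, 2 without cells of few genes, and 0 to 70 (0 to 2 members) with 1 pool left out. The median of members detected per cell, averaged over datasets, was 7.5 in Sox11 cells and became 9 at 1 count, 6 at 100 counts and 6.5 thinned. In Enpp2-rich cells it was 1.5 and became 3.25 at 1 count. Their summed member level of 796.3 CPM became 1345.6 once the counts of Ttr and Enpp2 were left out of the total. The all-gene median difference moved from 1.10 to 1.32 with library size alone. Replicate numbers come from the dataset names, and the block changed no call beyond those given. With 2 pools a class and a common dispersion of 4.262, differences carried by a few cells could not be told from spread.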

Other observations

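Both cells of dataset A that met the Sox11 and the Enpp2 rule held Ncam1, Pcdh9 and Cntn1. Whether either expressed the members of 2 cell types was not tested. The first had 443 counts of Sox11 with 3.446% of its counts on Enpp2, and 13 neuroblast and 4 choroid plexus markers. It had 11 members detected, among them Pcdh9 at 55.23 CPM, Ncam1 at 28.62 CPM, Robo2 at 24.92 CPM and Cntn1 at 10.1 CPM. It is the cell of well E10, whose members stood in proportions like those of wells G8, G9 and H6. The second had 85 counts of Sox11 with 1.928% on Enpp2, and 5 neuroblast, 8 choroid plexus and 13 astroglia markers. It had 12 members detected, among them Pcdh7 at 2288.4 CPM, Sema4a at 1703.9 CPM, Ncam1 at 182.8 CPM, Slit2 at 86.75 CPM and Cntn1 at 62.33 CPM. It held no count of Robo2, Nrxn3 or a plexin. Ncam1 was also detected in all 5 remaining cells with astroglia markers, so it does not mark this cell as one of the Sox11 class.

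Some members detected in 1 or 2 cells stood high in 1 of them, as these examples, chosen after their values were seen, show. Slit2 had 2056 counts in 1 remaining cell, Robo1 712 counts in 1 remaining cell, Efnb3 1555 counts in 1 Sox11 cell and Cdh6 2611 counts in 1 of the 2 Sox11 cells that held it. Others of this kind stayed low, such as Epha2, with at most 67 counts in a cell, and Nlgn4l, with at most 26. Cdh20 and Cdh19 reached 1904.1 and 1689.4 CPM among the remaining cells with astroglia markers, and neither was detected in a Sox11 or an Enpp2-rich cell.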
